A study of Mus musculus with 14 samples.

Results

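The 8 reference genes described here are Gapdh, Actb, Ppia, Ywhaz, Tbp, Hprt, Tubb5 and Eef1a1, and the question put to them was how steady each one was between libraries and what follows for a gene expressed relative to it. They were taken by symbol from 2 tables of raw counts, 1 for tumours with 13414 genes and 1 for cultured cells with 11793, of which 10684 were in both. All 8 were listed in both tables. They were selected on results of these data. Gapdh was chosen by its raw counts, which fell into a high and a low set of libraries, so its levels and differences are given as a description with no test, and the other 7 were set beside it as genes in common use for normalisation.

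The 14 libraries came from 4T1 cells, a mouse mammary carcinoma line, and were made with MARS-seq, in which bulk RNA is barcoded during reverse transcription and read at the 3′ end. Cells carried a doxycycline-inducible hairpin RNA, against TAZ in the shTAZ line and scrambled in the shC line. Transduced cells had been selected with puromycin, and the shTAZ line was a cell pool rather than a clone. There were 4 shC tumours and 4 shTAZ tumours, grown from such cells in the mammary fat pad of 8-week-old female BALB/c mice on doxycycline chow and taken 6 weeks after injection, and 3 shC and 3 shTAZ cultures, which the study's methods describe as treated with doxycycline for 48 h. The treatment field of every sample label reads "No treatment". Each tumour library came from a tumour of its own by the study's account, but neither the labels nor the methods say whether each mouse bore 1 tumour, or whether the cultures of a line were grown separately, so that p values in cells measure a spread which may be technical.

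A reference gene is used to turn an amount of one transcript into an amount per unit of cellular RNA, on the premise that the reference itself stays constant. Gapdh encodes glyceraldehyde-3-phosphate dehydrogenase, a glycolytic enzyme. Actb encodes cytoplasmic β-actin, and Tubb5 a β-tubulin of the microtubules. Ppia encodes cyclophilin A, a peptidyl-prolyl isomerase, and Ywhaz a 14-3-3 adaptor protein that binds phosphorylated partners. Tbp encodes the TATA-binding protein of general transcription, Hprt (hypoxanthine phosphoribosyltransferase) a purine salvage enzyme, and Eef1a1 the elongation factor that brings aminoacyl-tRNA to the ribosome. Mammalian genomes hold many processed pseudogenes of Gapdh, Ppia and other highly expressed genes, and reads from such copies can be hard to assign.

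The study's own RT-qPCR primers for Gapdh and Hprt are shown because they are its reference assays and differ in how many places of the transcriptome they match. Whether they were used on the RNA of these libraries is not stated. All letters are in lower case since the whole primer was matched. Positions were counted from the 5′ end of the principal transcript of each gene in the GENCODE annotation of GRCm38.
Gapdh forward primer: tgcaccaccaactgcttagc
Gapdh reverse primer: tggtcatgagcccttccac
Hprt forward primer: gcagtacagccccaaaatgg
Hprt reverse primer: ggtccttttcaccagcaagct
The Gapdh primers spanned positions 540 to 615 of a transcript of 1272 bases, an amplicon of 76 bases that ended 657 bases before the 3′ end. Both Gapdh primers also matched exactly in 71 other annotated genes, 68 of them pseudogenes, and in 62 of the 71 the amplicon had the same length. The Hprt primers spanned positions 540 to 591 of a transcript of 1289 bases, an amplicon of 52 bases, and matched in 0 other genes. The TAZ hairpin, gacgggtggaggttcacat, matched exactly in Wwtr1 on chromosome 3 and in 0 other genes.

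A 3′ protocol reads the end of the transcript, so the last 300 bases of each principal transcript were compared with every other annotated transcript in stretches of 50 bases. Of 251 such stretches, 208 (82.9%) of Gapdh (chromosome 6, 125161715 to 125166467) also occurred in other genes, 99 in number, of which 96 were pseudogenes. Ppia (chromosome 11, 6415443 to 6419817) shared 196 stretches (78.1%) with 18 other genes, and Eef1a1 (chromosome 9, 78478449 to 78489151) shared 83 (33.1%) with 3. Actb (chromosome 5, 142903115 to 142906754) shared 21 (8.37%) with 1 other gene. Ywhaz (chromosome 15), Tbp (chromosome 17), Hprt (chromosome X) and Tubb5 (chromosome 17) shared 0. Counts of Gapdh and Ppia, and in part of Eef1a1, are therefore uncertain as counts of a single gene, since how reads with several matches were treated is not given in the sources used here.

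Total counts were 1659736 to 22364483 per tumour and 2243071 to 14815813 per culture. Wwtr1, which encodes TAZ and is the target of the hairpin, was checked first. Its level was 59.5, 28.6, 41.7 and 26.8 CPM (counts scaled to the TMM-normalised library size, per 1000000) in shC tumours 1 to 4, and 21.6, 13.0, 17.2 and 25.6 CPM in shTAZ tumours 1 to 4. In culture it was 40.9, 30.2 and 26.4 CPM in shC cells and 8.09, 10.6 and 6.15 CPM in shTAZ cells. Every shTAZ library was below every shC library of the same kind, in the direction of the labels. Epithelial markers summed to 3066 to 4723 CPM in tumours and 2895 to 6821 CPM in cells. Macrophage markers summed to 2278 to 5774 CPM in tumours but 15.9 to 38.1 CPM in cells, where Ptprc, Dcn and Lum were among the markers not listed. Tumour libraries thus held RNA of host cells beside that of 4T1 cells, and fewer cells of a type cannot be told apart from less RNA per cell in such bulk samples.

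The level of Gapdh was 594, 17.0, 15.8 and 18.4 CPM in shC tumours 1 to 4 and 1362, 14.7, 27.6 and 763 CPM in shTAZ tumours 1 to 4. In culture it was 21.2, 1178 and 793 CPM in shC cells 1 to 3 and 21.9, 14.8 and 7.71 CPM in shTAZ cells 1 to 3. Thus 5 libraries were high and 9 were low, and the high ones were shC tumour 1, shTAZ tumours 1 and 4, and shC cells 2 and 3. No library lay between 27.6 and 594 CPM. In raw counts, shTAZ tumour 4 had 1790 Gapdh reads of a total of 2440286, while shTAZ tumour 2 had 36 of 2421938. As a share of all counts, Gapdh ran from 0.000804% (95% Wilson interval 0.00063 to 0.00103) in shTAZ cells 3 to 0.139% (0.135 to 0.143) in shTAZ tumour 1. These intervals cover counting error only.

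The gap in the middle was 21.5-fold, or 4.43 on the log2 scale, and took up 59.3% of the whole log2 range of Gapdh over the 14 libraries. Within tumours alone it was the same gap, 67.7% of the range, and within cells it was 36.2-fold, 71.4% of the range. The largest gap of the other members over the 14 libraries was between 1.43-fold and 1.53-fold, except in Ppia, where it was 6.95-fold. Within tumours that of Actb was 2.87-fold, 69.0% of its range. Within cells that of Tubb5 was 2.38-fold (67.1%) and that of Hprt 1.67-fold (68.7%). The remaining shares were 31.6% to 55.5%. A gap of such a share of the range was thus not particular to Gapdh, though its gap was the largest in fold. Among the 4695 genes with a mean of at least 20 CPM in tumours and in cells and a count in every library, 4 had a larger gap than Gapdh within tumours and 2 within cells. These were Mir692-1, Cox7b, Mrpl42 and Rpl7 in tumours, and Mir692-1 and Rps2 in cells. In all of these except Mir692-1 in tumours, a single library stood apart from the others, whereas in Gapdh 3 of 8 tumours and 2 of 6 cultures were high.

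The split did not follow the groups. The median of Gapdh was 17.7 CPM in shC tumours, 395 in shTAZ tumours, 793 in shC cells and 14.8 in shTAZ cells, and the ranges of each pair of groups overlapped. Nor did it follow the code prefix in the tumour labels, whose meaning is not stated. Among tumours of prefix FG, shC tumours 1 and 2 had 594 and 17.0 CPM and shTAZ tumours 1 and 2 had 1362 and 14.7 CPM. Among those of prefix FM, shC tumours 3 and 4 had 15.8 and 18.4 CPM and shTAZ tumours 3 and 4 had 27.6 and 763 CPM. Each prefix in culture held 1 shC and 1 shTAZ library, so a prefix and the pair of cultures cannot be told apart. The pseudogenes that shared stretches of the 3′ end of Gapdh and were listed in the tables, 5 for tumours and 5 for cells, summed to 6.67 to 15.7 CPM in tumours and 8.56 to 12.7 CPM in cells. Gapdh itself was at 7.71 to 27.6 CPM in its 9 low libraries. Whether reads moved between Gapdh and its copies was not tested.

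**Figure D1:**
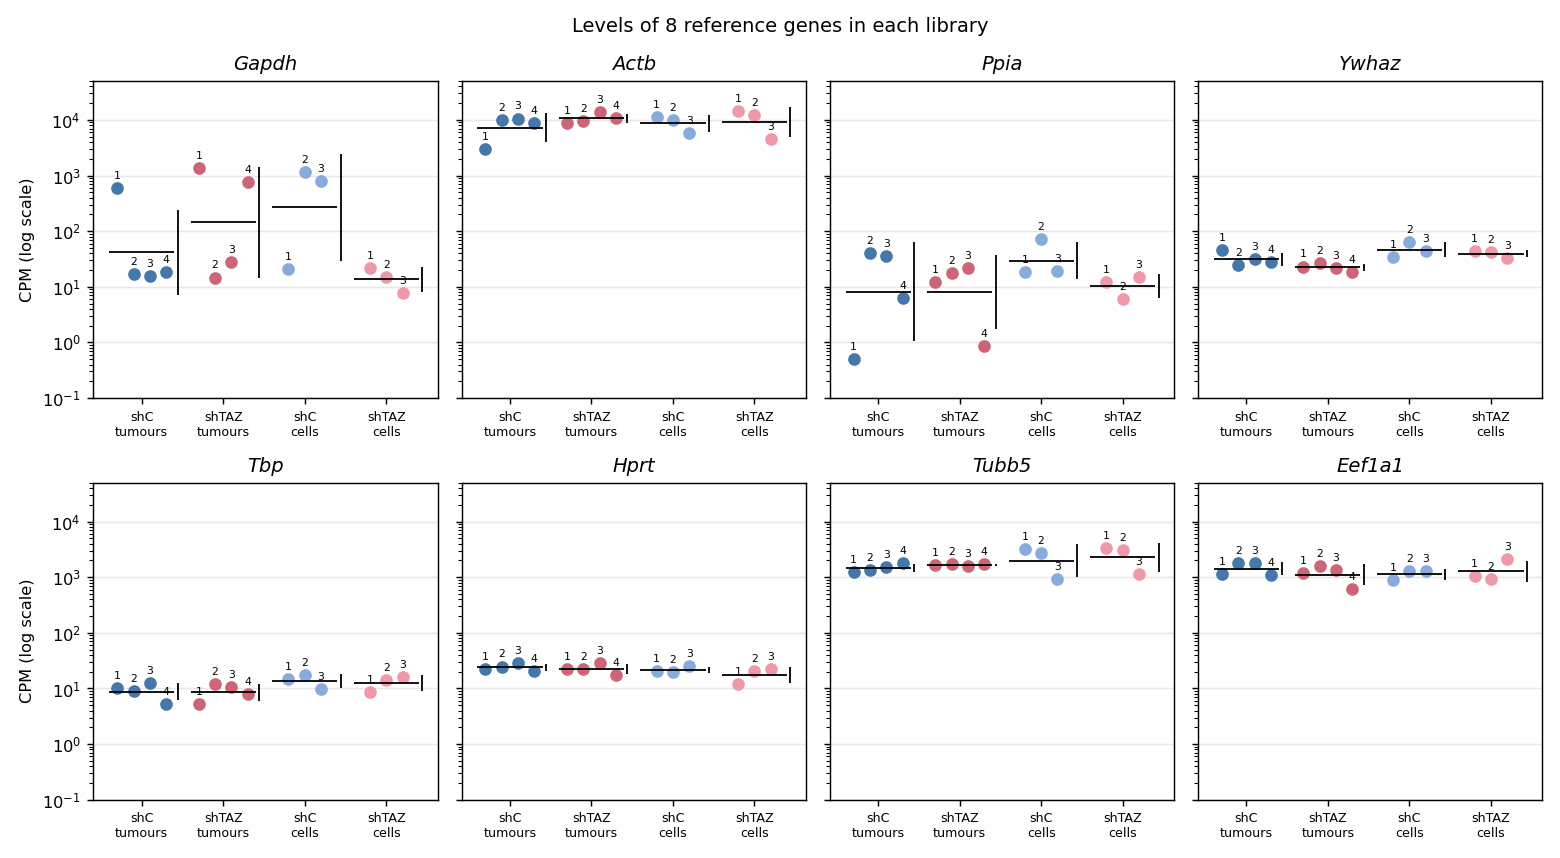
Level of each of the 8 reference genes in each library, in CPM on a log scale, with 1 point per library labelled by its replicate number. Horizontal lines are means and vertical bars 1 SD, both of log2 CPM, in 4 shC tumours, 4 shTAZ tumours, 3 shC cultures and 3 shTAZ cultures. Gapdh had no point between 27.6 and 594 CPM, and Ppia fell to 0.499 and 0.852 CPM in 2 tumours.

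Ppia, the isomerase, was the other member with a wide spread. It had 0.499, 39.8, 36.3 and 6.35 CPM in shC tumours 1 to 4 and 12.3, 17.9, 22.1 and 0.852 CPM in shTAZ tumours 1 to 4. In culture it had 18.7, 71.5 and 19.5 CPM in shC cells and 12.4, 5.93 and 14.9 CPM in shTAZ cells. The 2 lowest libraries were shC tumour 1, with 12 reads, and shTAZ tumour 4, with 2 reads, both of which were high in Gapdh. The third tumour that was high in Gapdh, shTAZ tumour 1, had 40 reads of Ppia and 12.3 CPM, within the range of the remaining tumours. The share in shTAZ tumour 4 had a 95% Wilson interval of 2.2e-05 to 0.000299%.

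Actb, the cytoplasmic actin, was read deeply in every library. It had 3030, 9951, 10597 and 8701 CPM in shC tumours 1 to 4 and 8735, 9735, 13984 and 10802 CPM in shTAZ tumours 1 to 4. In culture it had 11141, 9811 and 5894 CPM in shC cells and 14204, 12314 and 4540 CPM in shTAZ cells. The low values were in shC tumour 1 and in replicate 3 of both culture lines. Actb alone took 0.326% to 1.37% of all counts.

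Tubb5, the β-tubulin, was the steadiest member in tumours, with 1241, 1364, 1527 and 1772 CPM in shC tumours 1 to 4 and 1663, 1723, 1575 and 1727 CPM in shTAZ tumours 1 to 4. In culture it was at 3185, 2681 and 920 CPM in shC cells and 3342, 3122 and 1128 CPM in shTAZ cells. Replicate 3 of both lines was again low. Eef1a1, the elongation factor, had 1163, 1779, 1778 and 1090 CPM in shC tumours and 1207, 1572, 1370 and 602 CPM in shTAZ tumours, followed by 876, 1301 and 1286 CPM in shC cells and 1046, 935 and 2130 CPM in shTAZ cells. Its lowest library was shTAZ tumour 4 and its highest shTAZ cells 3.

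Hprt, the purine salvage enzyme, had the smallest spread of the 8 over all 14 libraries. It had 22.4, 24.8, 28.8 and 20.5 CPM in shC tumours and 22.2, 22.4, 28.8 and 17.5 CPM in shTAZ tumours. In culture it had 20.8, 19.9 and 25.1 CPM in shC cells and 11.9, 20.7 and 22.1 CPM in shTAZ cells, where the low value rested on 25 reads. Ywhaz, the 14-3-3 protein, ran from 18.7 to 31.3 CPM in 7 tumours, with 45.1 CPM in shC tumour 1, and from 32.9 to 64.4 CPM in cells. Tbp, the general transcription factor, ran from 5.24 to 12.5 CPM in tumours and from 8.56 to 17.6 CPM in cells, on 15 to 244 reads per library. Tbp, Ywhaz and Hprt thus rested on far fewer reads than Actb, Tubb5 and Eef1a1.

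Over the 14 libraries, the SD of log2 CPM was 2.89 for Gapdh, 1.99 for Ppia, 0.63 for Actb, 0.58 for Tubb5, 0.53 for Tbp, 0.50 for Ywhaz, 0.47 for Eef1a1 and 0.32 for Hprt. The median over the 4695 genes was 0.42. A smaller SD than that of Gapdh was found in 99.9% of the 4695 genes, for Ppia in 99.8%, for Actb in 80.6% and for Hprt in 25.7%. Ppia, with a mean of 17.0 CPM in tumours, was not itself among these genes. Over all 8952 genes with a count in every library the shares were 99.1% for Gapdh, 97.6% for Ppia, 57.2% for Actb and 14.4% for Hprt. The order differed between tumours and cells. In tumours Tubb5 had an SD of 0.18, and 16.3% of the 4695 genes had a smaller one. The SD there was 0.24 for Hprt, 0.39 for Ywhaz, 0.48 for Tbp, 0.51 for Eef1a1 and 0.66 for Actb. In cells Tubb5 had the third largest SD of the 8 at 0.83, after Gapdh at 3.15 and Ppia at 1.17, and Ywhaz the smallest at 0.35, close to Hprt at 0.37. Tubb5 thus went from the steadiest member in tumours to one of the least steady in culture.

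Of the libraries that carried these spreads, shC tumour 1 and replicate 3 of both culture lines stood apart in other genes as well. In 8 of the 10 genes with the largest gaps within tumours, shC tumour 1, the most deeply sequenced library, lay alone below the others. Without shC tumour 1, the SD of Actb in tumours was 0.23 instead of 0.66, and that of Ywhaz 0.25 instead of 0.39. Without shTAZ tumour 4, the SD of Eef1a1 in tumours was 0.29 instead of 0.51. The order in cells rested on single libraries too. Without shTAZ cells 1, the library with 25 reads of Hprt, the SD of Hprt was 0.13 instead of 0.37 in cells, below that of Ywhaz, and 0.21 instead of 0.32 over all 14 libraries. Without shC cells 2, the SD in cells was 0.21 instead of 0.35 for Ywhaz and 0.70 instead of 1.17 for Ppia, and without shTAZ cells 3 it was 0.26 instead of 0.47 for Eef1a1. In 6 of the 10 genes with the largest gaps within cells, both replicates 3 lay above the others, and in 1 both lay below. Atf3, a stress-induced transcription factor, and Gas5, a growth arrest RNA, were among the 6. Whether the state of those cultures had a part in the low Actb and Tubb5 was not tested.

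**Figure D2:**
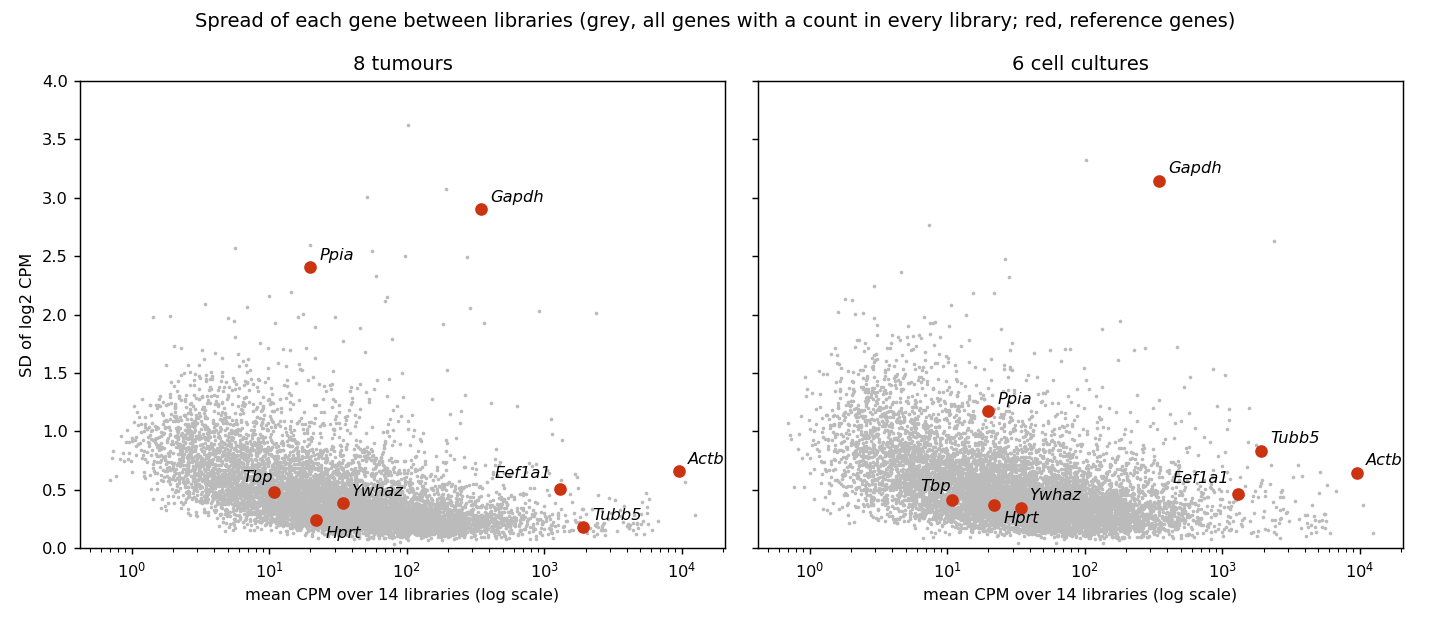
SD of log2 CPM between 8 tumours (left) and between 6 cultures (right) against mean CPM over 14 libraries (log scale), for all 8952 genes with a count in every library (grey) and the 8 reference genes (red). Gapdh lay near the top in both panels at 2.90 and 3.15, and Tubb5 moved from 0.18 in tumours to 0.83 in cells.

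Stability was also measured between the members, as the mean SD of the log2 ratio of a gene to each of the other 7, a measure known as M in which a lower value means a steadier gene. Over 14 libraries M was 3.16 for Gapdh, 2.19 for Ppia and 1.15 to 1.27 for the other 6, whose values were all raised by the ratios to Gapdh and Ppia. Measured against each other without those 2, a choice made after their values were seen, the 6 had an M of 0.64 (Hprt) to 0.78 (Actb). In tumours alone these were 0.43 for Hprt, 0.52 for Tubb5, 0.56 for Eef1a1, 0.57 for Tbp, 0.60 for Ywhaz and 0.76 for Actb.

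shTAZ was then compared with shC for each member. In tumours 0 of 9196 tested genes passed an adjusted p of 0.05 by edgeR (0%), with 366 at an unadjusted p under 0.05 and 4 called by DESeq2, so no member was called. Gapdh differed by 1.73 ± 1.45 (log2 fold change of shTAZ over shC ± SE), and by 4.98 without shC tumour 1. Among the others the difference ran from -0.62 ± 1.06 in Ppia to 0.41 ± 0.33 in Actb. It was smallest in Tbp (-0.07 ± 0.36) and Hprt (-0.09 ± 0.22), and Tubb5 differed by 0.17 ± 0.15. Ywhaz was at -0.52 ± 0.24, with an adjusted p of 0.923 by edgeR, and 0.729 to 1.00 over the alternatives. Wwtr1 itself was at -1.03 ± 0.30 with the same adjusted p of 0.923. The groups overlapped in each of the 7 members, against 2.25% of all tested genes whose groups did not overlap.

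In cells 0 of 9828 genes were called by edgeR (0%), with 496 at an unadjusted p under 0.05 and 3 by DESeq2, and 6 with the replicate number as a block, by which the cultures were paired. Gapdh differed by -5.51 ± 1.38, with 2 of 3 shC cultures high and 0 of 3 shTAZ cultures. Ppia was at -1.53 ± 0.54, and it was the only one of the 7 whose groups did not overlap, with a lowest shC value of 18.7 CPM against a highest shTAZ value of 14.9 CPM. Of all tested genes 5.6% did not overlap. The adjusted p of Ppia was 0.808 by edgeR, and 0.304 to 1.00 over the alternatives. Actb (-0.53 ± 0.19), Tubb5 (-0.59 ± 0.24) and Eef1a1 (0.59 ± 0.21) had adjusted p values of 0.808 to 0.857 by edgeR. The sign for Actb and Tubb5 rested on the surrogate variable in the model, which stands for unlabelled variation between cultures. Without it they were at 0.23 and 0.18, and with the replicate block in its place at 0.12 and 0.21. In CPM, Tubb5 was higher in shTAZ than in shC cells in 3 of 3 pairs of the same number, and Actb in 2 of 3. No direction is therefore given for either gene in cells. With the surrogate variable Tbp and Hprt again differed least, by -0.05 ± 0.39 and -0.08 ± 0.34. In mean log2 CPM, with no model, Hprt went from 4.44 in shC to 4.14 in shTAZ cells and Tbp from 3.77 to 3.63. Actb went from 13.08 to 13.18 and Eef1a1 from 10.15 to 10.32, so that this order rested on the model too. Wwtr1 was at -2.25 ± 0.35 with an adjusted p of 0.0647 by edgeR and 0.00533 with the replicate block. Over all 15 alternatives, by edgeR or DESeq2, the adjusted p of Wwtr1 ran from 8.77e-06 to 0.999956, and 5 of the 15 passed 0.05. The change in tumours was not distinguished from that in cells for any gene, with 0 of 9196 called by edgeR (0%), 227 at an unadjusted p under 0.05 and 0 by DESeq2.

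**Figure D3:**
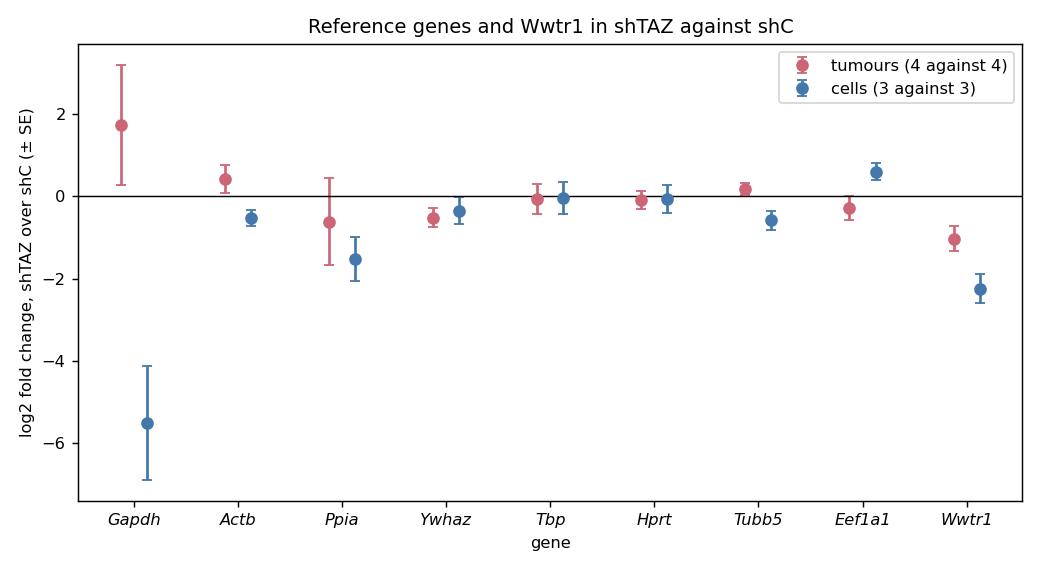
Log2 fold change of shTAZ over shC (± SE, edgeR) for the 8 reference genes and Wwtr1, in 4 against 4 tumours and 3 against 3 cultures. The model for cells held a surrogate variable, without which Actb and Tubb5 lay above 0 in cells, at 0.23 and 0.18. Gapdh was at 1.73 in tumours and -5.51 in cells. Tbp and Hprt lay within 0.1 of 0 in both, in cells with the surrogate variable in the model.

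Tumours were compared with cells over all 14 libraries, where 51.2% of 9196 tested genes were called by edgeR, 25.6% higher and 25.7% lower in tumours. Of the 7 members 1 was called, a smaller share than that background. Ywhaz was lower in tumours (-0.68 ± 0.19 on the log2 scale), with a mean of 27.4 ± 8.16 CPM (SD, n = 8) against 43.7 ± 11.3 CPM (SD, n = 6) and an adjusted p of 0.00688 by edgeR. The highest tumour, shC tumour 1, lay within the range of the cells. This call was lost when libraries were scaled to the other 7 reference genes, Ywhaz itself among them (-0.20, adjusted p of 0.669). Tubb5 (-0.61 ± 0.25) and Tbp (-0.58 ± 0.26) had adjusted p values of 0.0558 and 0.0735, and both passed in some alternatives. Tubb5 did so without shC cells 3 (0.00466), without shTAZ cells 3 (0.00727) and with the replicate block (-0.44, 0.00391), and Tbp without shC cells 3 (0.0421) or shTAZ cells 1 (0.0440). Hprt (0.21 ± 0.19), Eef1a1 (0.06 ± 0.23), Actb (-0.04 ± 0.28) and Ppia (-0.33 ± 0.69) had adjusted p values of 0.354 to 0.911. Gapdh was at 1.62 ± 1.08, and at -0.01 without shC tumour 1. In these values RNA from host cells of the tumours cannot be told apart from a change within 4T1 cells. Tumours and cells also came in separate count tables, and whether they shared a sequencing run is not stated. Kind of library and run therefore cannot be told apart, here or in the families compared between tumours and cells below.

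Wwtr1 was then expressed per count of each reference gene. These are ratios of 3′ read counts and not RT-qPCR values, and the study's Gapdh amplicon ended 657 bases before the 3′ end. By RT-qPCR, for which its methods name HPRT or GAPDH as reference, the study found less Taz mRNA in shTAZ than in shC cells. Per count of Gapdh, Wwtr1 was 1.93, 0.0256 and 0.0333 in shC cells 1 to 3 and 0.37, 0.714 and 0.797 in shTAZ cells 1 to 3. The ratio thus placed 2 of the 3 shC cultures below all shTAZ cultures, although Wwtr1 per library was lower in each shTAZ culture. The log2 difference of shTAZ minus shC per Gapdh was 2.33 ± 2.05 in cells and -2.78 ± 1.82 in tumours. Per Hprt, Wwtr1 was 1.97, 1.52 and 1.05 in shC cells and 0.68, 0.51 and 0.279 in shTAZ cells, a difference of -1.68 ± 0.46. Here all shTAZ values were below all shC values.

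Over the 7 other references the difference in cells ran from -2.18 ± 0.54 (Tubb5) to -0.46 ± 0.94 (Ppia), with a median of -1.84, against -1.98 ± 0.29 per TMM-normalised library. Per each of 6 references, all but Ppia, shTAZ lay wholly below shC. For these 6 a two-sided exact permutation test gave p = 0.1, the smallest that 3 against 3 allows. Per Ppia 1 of 3 shTAZ cultures was below every shC culture, with an exact p of 0.7. In tumours the difference ran from -1.54 ± 0.71 (Actb) to -0.50 ± 0.33 (Ywhaz), with a median of -0.94, against -0.99 ± 0.34 per library. Per Actb and per Tubb5 the groups did not overlap, and the exact permutation p was 0.0286, the smallest that 4 against 4 allows. Per Ywhaz, Tbp and Hprt, 3 of 4 shTAZ tumours were below every shC tumour, with exact p values of 0.229, 0.114 and 0.114. Per Eef1a1 2 of 4 were, with an exact p of 0.314, and per Ppia 0 of 4 were, with an exact p of 0.629. After Benjamini-Hochberg adjustment over the 14 tests the smallest p was 0.16. Even with all 7 tumour tests at their smallest p, the adjusted p could not have gone below 0.0571. All 14 differences had the sign of the knockdown, but they share the same Wwtr1 counts and are not independent.

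**Figure D4:**
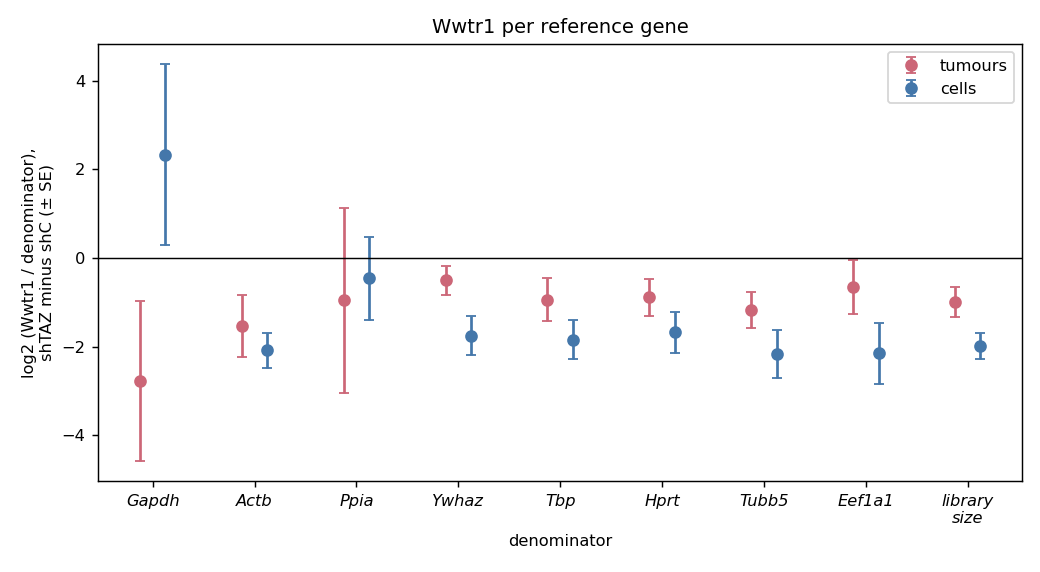
Difference between shTAZ and shC in the log2 ratio of Wwtr1 counts to each reference gene, or to the TMM-normalised library size (± SE), in 4 against 4 tumours and 3 against 3 cultures. Per Gapdh the cells were at 2.33, above 0, while the 7 other references and the library size placed both comparisons below 0.

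Scaling each whole library to 1 or more reference genes carried the same differences to all genes. Scaled to Gapdh alone, the median log2 fold change of all genes went from -0.01 to -0.75 in tumours and from -0.02 to 2.45 in cells. Genes at an unadjusted p under 0.05 went from 366 to 14 in tumours and from 496 to 19 in cells. Between tumours and cells, 209 of 9196 genes (2.27%) were called in place of 4712. Scaled to the geometric mean of the other 7, the medians were -0.01 in tumours and 0.28 in cells, 29 genes were called in tumours (0.315%) and 1 in cells (0.0102%), and 3411 (37.1%) between tumours and cells. The share of the last that was higher in tumours was 78.3%, against 49.9% under TMM, with a median over all genes of 0.39 against -0.03. The 7 include Ppia, whose SD of log2 CPM over the 14 libraries was 1.99. It had only 12 reads in shC tumour 1 and 2 in shTAZ tumour 4. Whole libraries were not scaled without Ppia, so its part in these shifts was not tested.

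Families of the members were then described from lists chosen with earlier results known. In shTAZ against shC, 0 members of any list were called in tumours or in cells. With the replicate block in cells 1 was, Polr2a, which encodes the catalytic subunit of RNA polymerase II (1.21 ± 0.24, adjusted p of 0.0482 by edgeR), from the list of other genes used as references. Of 13 tested glycolytic enzymes, 11 had a log2 fold change above 0 in tumours (median 0.15, over all genes -0.01). Pkm (pyruvate kinase) had 1997 to 3171 CPM in tumours and 1611 to 4446 CPM in cells, and Ldha (lactate dehydrogenase A) 1006 to 1612 and 798 to 2115 CPM. Their SD of log2 CPM was 0.22 and 0.23 in tumours and 0.50 and 0.53 in cells, against 2.90 and 3.15 for Gapdh of the same pathway. The whole range of each was narrower than the gap of Gapdh, which was 21.5-fold in tumours and 36.2-fold in cells. In cells the signs of these families depended on the model. With the surrogate variable 0 of 9 tubulins lay above 0 (median -0.58), without it 8 of 9 did (median 0.23), and with the replicate block 8 of 9 did (median 0.20). Glycolytic enzymes above 0 were 1, 6 and 5 of 13 in the same order (medians -0.53, -0.0033 and -0.05), and actins with actin-binding proteins 0, 5 and 6 of 12 (medians -0.32, -0.10 and -0.02). The 14-3-3 proteins had 0, 1 and 1 of 6 above 0 (medians -0.29, -0.20 and -0.18). Tuba1b (α-tubulin) went from -0.27 ± 0.27 with the surrogate variable to 0.50 ± 0.20 with the block, while Cfl1 (cofilin, which severs actin filaments) stayed below 0 at -0.77 ± 0.24 and -0.48 ± 0.19, as did Ywhae at -0.57 ± 0.23 and -0.45 ± 0.19. Tubb4b (β-tubulin) had an SD of 1.07 in cells as Tubb5 had one of 0.83.

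Between tumours and cells, where 51.2% of all genes were called, the called members were 0 higher and 7 lower of 13 in TFIID and general transcription, 0 higher and 4 lower of 8 translation elongation factors, 1 higher and 4 lower of 8 cyclophilins, and 2 higher and 4 lower of 9 tubulins. Gtf2a2, a subunit of TFIIA, was lower in tumours (-1.06 ± 0.16), as was Taf10, a subunit of TFIID (-0.50 ± 0.15), beside -0.58 ± 0.26 in Tbp. Ywhae was lower (-1.22 ± 0.14) and Ywhag was at -0.28 ± 0.14, beside -0.68 in Ywhaz. Ppib (cyclophilin B) was lower (-0.74 ± 0.17) and Ppil2 higher (0.66 ± 0.12). Eef1g was lower (-0.76 ± 0.18), while Eef2 (-0.03 ± 0.14), Aprt (-0.08 ± 0.15) and Ampd2 (0.03 ± 0.15) were not called. Of 12 tested glycolytic enzymes 4 were higher and 0 lower. Of 23 other genes used as references 4 were higher and 7 lower, the latter with Rplp0 (-0.77 ± 0.20) and Rps18 (-0.36 ± 0.12), 2 ribosomal protein genes.

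The genes whose pattern was most like that of Gapdh were sought by the Pearson correlation of log2 CPM over the 14 libraries, after tumours and cells had each been centred on their own mean. Of 4694 genes compared, the highest were Hilpda (0.83), a lipid droplet protein induced by hypoxia, Pgs1 (0.77), a phosphatidylglycerol phosphate synthase, Slc25a5 (0.76), a mitochondrial ADP/ATP carrier, Cln3 (0.76), a lysosomal membrane protein, and Gadd45b (0.75), a stress-response gene. These are descriptions over 14 libraries that share their depth and composition. Hilpda had 83.9, 75.9 and 63.1 CPM in shC tumour 1 and shTAZ tumours 1 and 4, and 34.9 to 44.2 CPM in the other 5 tumours. Its SD in tumours was 0.50, and no gene of the 5 had an SD over 0.61 there. The other members correlated with Gapdh between -0.38 (Eef1a1) and 0.31 (Ywhaz). The values differed by kind of library. Over the 8 tumours alone r ran from -0.70 (Ppia) and -0.66 (Eef1a1) to -0.03 (Ywhaz), and over the 6 cultures from -0.25 (Tubb5) to 0.74 (Ppia) and 0.80 (Ywhaz).

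The steadiest genes with a mean of at least 100 CPM in tumours and in cells, 1447 in number, were Sec13 (SD of log2 CPM 0.12), a component of COPII vesicle coats and nuclear pores, Dctn2 (0.12), a dynactin subunit, Dmrta2 (0.13), Ndufa7 (0.13), a subunit of respiratory complex I, and Eif3k (0.14), a translation initiation factor subunit. Dctn2 ran from 223 to 311 CPM and Eif3k from 519 to 723 CPM over the 14 libraries. Hprt, with 11.9 to 28.8 CPM, had an SD of 0.32 on far fewer reads. These 5 were chosen for their small spread in the same libraries, so their steadiness was not tested in others.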

How the data were processed

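MARS-seq libraries of 8 tumours and 6 cultures were analysed. The authors trimmed reads with cutadapt, mapped them to GRCm38 (mm10) with STAR, counted them per gene with HTSeq and deposited raw counts. The deposited signal columns are counts normalised by the authors with DESeq2 size factors, and the deposited log2 values are the authors' regularised logarithms, for cells also after batch correction with sva. The authors' fold changes and p values were not used. All 48 sample columns were matched to a sample, and 0 were left over.

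Analyses used R 4.3.3 and Python 3.11. Genes that passed filterByExpr of edgeR 4.0.16 were normalised by TMM and tested by quasi-likelihood, with 1 surrogate variable (sva 3.50.0) for cells and Benjamini-Hochberg adjustment at 0.05. CPM were scaled to TMM library sizes fitted over the 14 libraries, which total 1659736 to 22364483 counts, so that a gene of 10 CPM rests on about 20 reads in the smallest. Stability was measured on genes with a count in every library, with no pseudocount. No pair of libraries agreed within sampling noise (smallest chi-square per degree of freedom 7.52). The replicate numbers come from the labels. They were taken to pair the cultures, whose same-numbered deviations correlated over genes at 0.31, 0.18 and 0.60. Cultures of unlike number correlated at -0.51 to 0.22, so that the pairing was clear for replicate 3 only. On simulated counts the estimated changes were close to those put in, and the test in cells called a smaller part of them than the test in tumours. The simulated cultures held no effect of replicate or batch. They therefore cannot show how close the estimates in cells are where the sign turned with the surrogate variable.

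The members, lists and markers were chosen with earlier results of these data known. Named genes were the members, Wwtr1, the 2 genes of highest mean CPM of each list and any called gene of a list in shTAZ against shC, the 5 most like Gapdh (mean of at least 20 CPM) and the 5 steadiest (at least 100 CPM), with genes of larger gaps named after their values were seen. Alternatives were RLE, total counts, DESeq2 1.42.0, scaling to Gapdh or to the other 7, filters, blocks, the label prefix, no surrogate variable, the authors' values and leaving out each library.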

Additional observations from a re-analysis of the deposited data

Results flagged for a closer look

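Gapdh was left out of the search for libraries that stand apart within a group, since its split is what it was chosen for. In the 16 sets of 4 tumours that remained (7 reference genes and Wwtr1 in 2 groups), 0 libraries were singled out by Dixon's criterion at 95%, where chance alone singles out about 1 in 20. The criterion was applied to CPM, not to the log2 CPM on which the spreads and gaps were measured. The outcome does differ on that scale for Actb, which was at 11.57 in shC tumour 1 and at 13.09 to 13.37 in the other shC tumours. That gap is past the criterion, so the count of 0 holds for CPM only. Cultures, in groups of 3, were not examined in this way.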

How the results depend on the processing

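DESeq2 replaced the scaling, the dispersion model and the test together, and the authors' log2 values the scaling and the transformation. The other alternatives changed 1 choice at a time. With RLE size factors, total counts, DESeq2 or unfiltered genes, none of the differences given for the 7 members changed sign, and the largest gap of Gapdh stayed between 4.35 and 4.56 in tumours and 5.10 and 5.20 in cells (log2) under RLE and total counts with or without the counts of Gapdh. In cells the gap of 5.18 was 3.31 in the authors' regularised log2 values and 1.56 in those that had also been batch corrected. The count of called genes in tumours, 0, became 29 with libraries scaled to the other 7 reference genes and 4 with DESeq2. In cells, 0 became 1 with that scaling, 3 with DESeq2, 2 with unfiltered genes, 1 with a floor of 10 counts in each library and 6 with the replicate block, and 0 to 69 with a replicate left out, 69 without shC cells 3, where 1111 genes had an unadjusted p under 0.05. Between tumours and cells 4712 became 209 with libraries scaled to Gapdh. The cause of these shifts was not tested. The replicate block in tumours, where the numbers did not pair the samples (correlations over genes of 0.22, 0.12, 0.32 and -0.01), left the count at 0.

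Scaled to Gapdh alone, these differences (log2) turned sign. In tumours Actb went to -0.54 and Tubb5 to -0.63. In cells Actb went to 2.06, Ppia to 1.60, Ywhaz to 2.54, Tbp to 2.34, Hprt to 2.32, Tubb5 to 1.90 and Wwtr1 to 0.13. Between tumours and cells Actb went to 0.026 and Ppia to 0.50. Scaled to the other 7, the unsteady Ppia among them, Ywhaz went to 0.015, Tbp to 0.28 and Hprt to 0.20 in cells. Between tumours and cells Actb went to 0.30 with that scaling. In cells Actb was at 0.12 and Tubb5 at 0.21 with the replicate block, and at 0.23 and 0.18 with no surrogate variable.

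With 1 library left out, the sign also turned in these ranges. In tumours Tbp ran from -0.25 to 0.13 and Hprt from -0.23 to 0.011. In cells Actb ran from -0.88 to 0.84, Tbp from -0.25 to 0.43, Hprt from -0.43 to 0.044, Tubb5 from -1.05 to 1.49 and Eef1a1 from -0.35 to 0.88. Actb and Tubb5 were highest without shC cells 1. Between tumours and cells Actb ran from -0.22 to 0.11, Ppia from -0.63 to 0.14 and Eef1a1 from -0.047 to 0.29. Wwtr1 per Ppia ran from -2.18 to 0.62 in tumours and from -1.14 to 0.050 in cells. None of these members was called with all libraries. Reads were fewest for Tbp and Ppia, at 15 and 2 in their lowest libraries. For Ppia this was not a matter of total counts alone, since shC tumour 1, the most deeply sequenced library, had 12 reads.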
